A study of Mus musculus with 2 samples.

Results

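The RAB GTPases are the largest family of small GTP-binding proteins and give each membrane of the secretory and endocytic routes its identity. A RAB carries prenyl lipid anchors, is loaded with GTP by an exchange factor on its target membrane, and there recruits effectors such as motors, tethers and fusion factors until a GTPase-activating protein switches it off. In neuroendocrine and exocrine pancreatic cells the RAB3 and RAB27 subfamilies are known for bringing secretory granules to the plasma membrane. RAB genes were taken as every symbol made of RAB, a number and at most 1 letter from A to F, also inside the labels of merged loci, with the pseudogene RAB1C left out. This gave 63 genes among 56991 gene and locus labels in the table.

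Messenger RNA levels were measured by RNA sequencing in 2 tumors, 1 per group, both patient-derived xenografts (human tumor tissue kept growing in mice) of gastroenteropancreatic neuroendocrine origin. The metastatic tumor grew in the peritoneal cavity of a Foxn1nu athymic nude mouse, and the primary tumor grew in the flank of a mouse of the same strain. The labels name no treatment. Tumors were dissociated and RNA was taken from the cell pellets, which can hold host cells, since athymic mice lack mature T cells but keep other cells of their own. The origin of the tumor and the site of the graft differed together and cannot be told apart. It is not stated whether the same patient gave both tumors, whose titles have a code in common. With 1 library per group no value has an error and no test was possible.

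Levels are FPKM, a measure that by its usual definition divides the fragments of a gene by transcript length and by the number of fragments sequenced. Levels of different genes can thus be set side by side. Whether each library here was divided by its own number of fragments is not stated. Of 6509 rows with low values 51.1% stood in whole-number ratios between the libraries, as given under the processing. Whole-number ratios this exact arise when both libraries share 1 divisor, and the unscaled ratios would then carry any difference in depth. The values summed to 885319 in the metastatic and 784987 in the primary library, and the read depth behind them is unknown. Each log2 ratio divides the metastatic by the primary value after 1 FPKM was added to both, which shrinks the ratios of low genes toward 0. Genes called higher or lower differ by at least 2-fold on this scale. The neuroendocrine label was only partly matched by its markers: CHGA, SCG5 and PCSK2 were listed at 0 in both libraries, and SYP stood at 1.96 FPKM in the metastatic and 1.63 FPKM in the primary tumor. LDHA and RPL7A, which nearly every cell uses, were listed at 0 in both as well, so a 0 may stand for a failed estimate. Marker levels of other cell types also differed. Of 7 expressed neuroendocrine markers with their own row 1 passed 2-fold upward and 3 downward. The list summed to 713 FPKM in the metastatic and 259 FPKM in the primary tumor, mostly from UCHL1, the member that passed upward. UCHL1 stood at 705 FPKM (metastatic) and 225 FPKM (primary). The 3 downward were PCSK1, at 2.74 FPKM (metastatic) and 19.9 FPKM (primary), SCG2 and INSM1. SCG2 stood at 0.340 FPKM (metastatic) and 2.62 FPKM (primary), and INSM1 at 0.271 FPKM (metastatic) and 3.54 FPKM (primary). The marker ENO2 was read only in a locus merged with LRRC23, at 23.8 FPKM (metastatic) and 81.6 FPKM (primary), which the sum leaves out. Pancreatic acinar markers summed to 1634 FPKM in the metastatic and 478 FPKM in the primary tumor, and 4 of 7 expressed members passed 2-fold upward. Fibroblast markers summed to 181 FPKM in the metastatic and 571 FPKM in the primary tumor, and of 9 expressed members 6 passed 2-fold downward and 1 upward. Endothelial markers summed to 5.90 FPKM in the metastatic and 28.2 FPKM in the primary tumor, where EGFL7 held 19.1 FPKM. Of 4 expressed members 2 passed 2-fold downward and 0 upward. Smooth muscle markers summed to 107 FPKM (metastatic) and 34.6 FPKM (primary), with MYL9 at 81.5 FPKM (metastatic) and 12.2 FPKM (primary). Of 4 expressed members 3 passed 2-fold upward, and TAGLN was lower, at 14.4 FPKM (metastatic) and 19.8 FPKM (primary). Leukocyte markers summed to 12.4 FPKM (metastatic) and 4.01 FPKM (primary), mostly from LYZ. Of 2 expressed members 1 passed 2-fold upward and 0 downward. The acinar genes AMY2A and SYCN, the endothelial gene KDR, the muscle genes MYH11 and MYOCD and the leukocyte genes CD3E and FCGR3A were listed at 0 in both. The part of these cell types in the RAB values was not tested, and in bulk RNA fewer cells of a type and less RNA per cell cannot be told apart.

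Most RAB genes stood at similar levels in both tumors. Of the 63 genes, 53 had a row of their own, and 40 of these reached 1 FPKM in a library. Of the 40, RAB32 and RAB7B were at least 2-fold higher in the metastatic tumor and RAB30 was at least 2-fold lower. These are 2 higher and 1 lower, or 7.5% in either direction, where 9.22% of all 13811 genes and loci of at least 1 FPKM were higher, 9.35% were lower and 18.6% passed in either direction. At a 1.5-fold threshold 4 RAB genes were higher and 4 lower, a share of 20%. Of all genes and loci 21.8% were higher, 20% lower and 41.8% past 1.5-fold in either direction. The median size of the log2 ratio, regardless of sign, was 0.31 over the RAB genes and 0.48 over all genes and loci. With the minimum raised to 10 FPKM the same median was 0.35 over 23 RAB genes and 0.48 over 7686 genes and loci. Of these RAB genes 1 was higher and 1 lower, or 8.70%, where 9.91% of those genes and loci were higher, 7.92% lower and 17.8% past 2-fold in either direction.

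**Figure D1:**
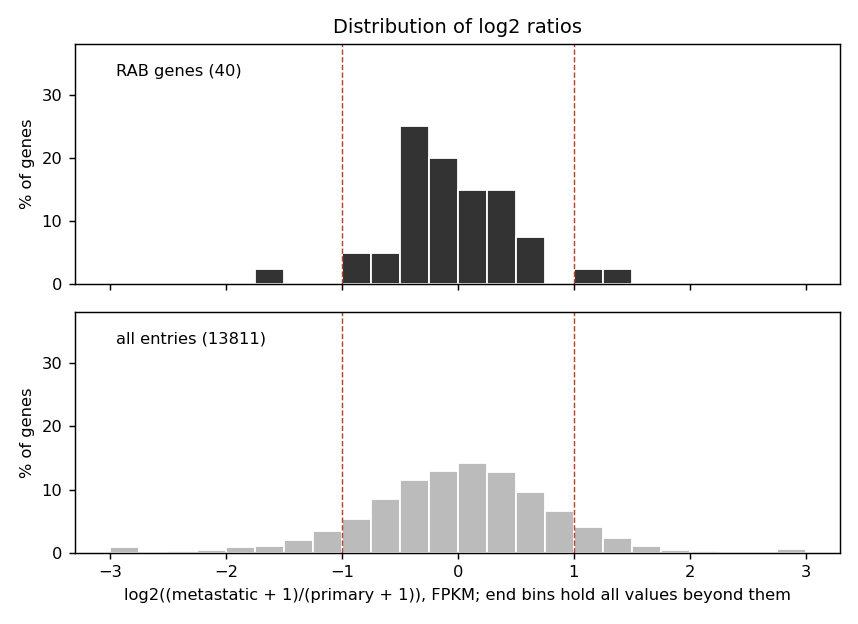
Share of genes (%) by log2((metastatic + 1)/(primary + 1)) in FPKM, for 40 RAB genes (top) and all 13811 genes and loci of at least 1 FPKM (bottom), in bins of equal width with values beyond the axis put in the end bins. Dashed lines mark 2-fold, which 3 RAB genes passed: 2 higher and 1 lower.

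The median log2 ratio of the 40 RAB genes was -0.12, with 17 above and 23 below 0, beside a median of 0.03 over all genes and loci. Of all 13811 genes and loci 7148 lay above and 6585 below 0. The sign of the RAB median depended on the loci counted. The other 10 RAB genes stood only in loci merged with overlapping genes, 9 of which were higher in the metastatic tumor, or 7 after rescaling to an equal sum and 8 by the 75th percentile, and with these counted the median of the RAB genes was 0.04. Each of the 10 merged loci was within 2-fold. When both libraries were set to an equal sum, the median of all genes and loci moved by -0.16 to -0.13, that of the RAB genes was -0.26, and of 42 RAB genes then expressed 1 was higher and 2 were lower. Of all genes and loci 7.17% were higher and 12.6% lower at that scaling. The remaining 13 genes with their own row did not reach 1 FPKM in either library and were RAB6C, RAB6D, RAB9B, RAB19, RAB25, RAB27B, RAB33A, RAB38, RAB39A, RAB39B, RAB40A, RAB41 and RAB44. RAB6C and RAB41 were listed at 0 in both libraries. RAB19, RAB33A, RAB39B and RAB40A were listed at 0 in the metastatic tumor and had, in that order, 0.286, 0.511, 0.0131 and 0.0238 FPKM in the primary one. RAB44 stood at 0.0312 FPKM in the metastatic tumor and was listed at 0 in the primary tumor. RAB9B stood at 0.118 FPKM in the metastatic and 0.106 FPKM in the primary tumor. RAB39A stood at 0.02504 FPKM in the metastatic and 0.0751 FPKM in the primary tumor.

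Levels spanned a wide range, and their order was much alike in both tumors. RAB11A, the main RAB of recycling endosomes, was the most abundant RAB gene with its own row at 556 FPKM in the metastatic and 474 FPKM in the primary tumor. It alone made up 29.0% of the summed FPKM of these RAB genes in the metastatic tumor and 27.2% in the primary tumor. RAB2A, RAB1A and RAB7A were next in both tumors. RAB2A had rank 2 in the metastatic tumor and rank 4 in the primary tumor. These 4 genes were the only ones with their own row above 100 FPKM in both libraries. Shares of the RAB sum leave out every merged locus, such as those of RAB4A, RAB4B, RAB8A, RAB13 and RAB43. The recycling and surface delivery genes together made up 42.7% of the RAB sum in the metastatic and 42.0% in the primary tumor. The ER and Golgi genes made up 35.9% in the metastatic and 36.0% in the primary tumor, and the late endosome genes 13.2% in the metastatic and 11.2% in the primary tumor. The early endosome genes with their own row made up 7.09% in the metastatic and 9.29% in the primary tumor. This leaves out the merged locus of RAB5C, at 87.7 FPKM in the metastatic and 61.3 FPKM in the primary tumor. The regulated secretion genes with their own row made up 0.454% in the metastatic and 0.671% in the primary tumor, which leaves out the merged loci of RAB3D and RAB27A. Across the 40 genes, more abundant members tended to have higher log2 ratios, with a Spearman coefficient of 0.36, and the coefficient over all genes and loci was 0.17. These coefficients run across genes of the same 2 libraries, which are not independent replicates.

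**Figure D2:**
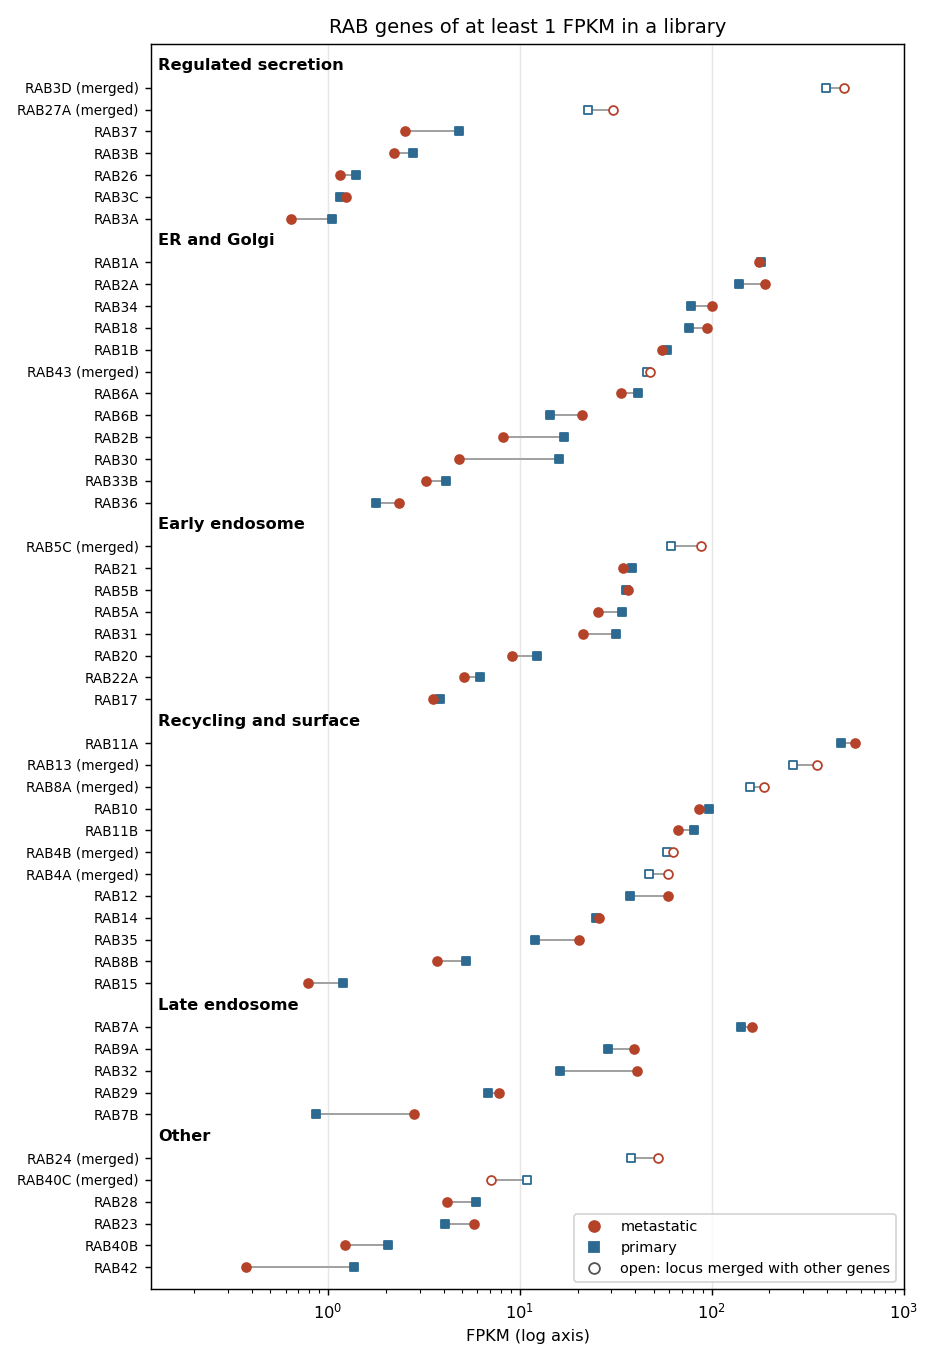
FPKM (log axis) of 50 RAB genes that reached 1 FPKM in a library, by role, with metastatic values as circles and primary values as squares; open symbols are loci merged with other genes, whose level belongs to the whole locus. RAB11A is highest among the genes with their own row, at 556 FPKM in the metastatic and 474 FPKM in the primary tumor, and the widest gaps between the paired symbols are those of RAB42, RAB30 and RAB7B.

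Genes of regulated secretion were low where they could be read alone, and 0 of 5 expressed members passed 2-fold in either direction. RAB3 proteins sit on secretory granules and synaptic vesicles and act in docking before fusion. RAB3A, the form best known from synapses, stood at 0.641 FPKM in the metastatic and 1.046 FPKM in the primary tumor. RAB3B stood at 2.19 FPKM in the metastatic and 2.76 FPKM in the primary tumor. RAB3C stood at 1.24 FPKM in the metastatic and 1.16 FPKM in the primary tumor. The 3 genes were within 1.5-fold between the tumors once 1 FPKM was added to each value, and the log2 ratio of RAB3C, 0.05, was -0.05 with both libraries at an equal sum. RAB3D, the form found on zymogen granules of pancreatic acinar cells, was read only in 1 locus with TMEM205, which stood at 491 FPKM in the metastatic and 393 FPKM in the primary tumor. How much of that level belongs to RAB3D cannot be told from the table. Of the 7 expressed acinar markers 5 had log2 ratios above 0 and 2 below, and their part in this locus was not tested.

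RAB27A and RAB27B tether granules and lysosome-related organelles at the cell cortex and take part in exosome release. RAB27A was read in 1 locus with PIGBOS1, at 30.6 FPKM in the metastatic and 22.6 FPKM in the primary tumor. RAB27B stood at 0.955 FPKM in the metastatic and 0.520 FPKM in the primary tumor, under 1 FPKM in both. RAB37, first described on mast cell granules, stood at 2.51 FPKM in the metastatic and 4.82 FPKM in the primary tumor, a log2 ratio of -0.73. RAB26, a RAB of secretory granules and synaptic vesicles, stood at 1.16 FPKM in the metastatic and 1.40 FPKM in the primary tumor. The median log2 ratio of the group was -0.23 over 5 genes.

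Among ER and Golgi genes 1 of 11 expressed members was at least 2-fold lower and 0 were higher. The median log2 ratio was -0.04. RAB1A and RAB1B, which govern transport from the ER to the Golgi, were nearly level. RAB1A stood at 176 FPKM in the metastatic and 181 FPKM in the primary tumor. RAB1B stood at 54.8 FPKM in the metastatic and 58.3 FPKM in the primary tumor. RAB30, a Golgi-resident RAB, stood at 4.82 FPKM in the metastatic and 16.1 FPKM in the primary tumor. Its log2 ratio of -1.55 was the lowest of the 40 genes and stayed past 2-fold lower under each of the pseudocounts, filters and scalings tried. RAB2A and RAB2B, which act between the ER, the Golgi and lysosomes, differed in opposite directions. RAB2A stood at 189 FPKM in the metastatic and 139 FPKM in the primary tumor, a log2 ratio of 0.45. RAB2B stood at 8.19 FPKM in the metastatic and 16.9 FPKM in the primary tumor, a log2 ratio of -0.96 that lay just short of 2-fold. The RAB2B ratio was -1.04 with a pseudocount of 0.1 FPKM and -1.14 with both libraries at an equal sum.

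RAB6 proteins act in traffic within and out of the Golgi, RAB6A in most cells and RAB6B mainly in neurons. RAB6A stood at 33.8 FPKM in the metastatic and 41.3 FPKM in the primary tumor. RAB6B stood at 21.0 FPKM in the metastatic and 14.3 FPKM in the primary tumor. The retrocopy RAB6C was listed at 0, and RAB6D stood at 0.0149 FPKM in the metastatic and 0.0893 FPKM in the primary tumor. Reads of near-identical copies may have been split between them and RAB6A. RAB18, which acts at the ER and lipid droplets, stood at 94.0 FPKM in the metastatic and 76.4 FPKM in the primary tumor. RAB34, with roles in Golgi and lysosome position and in cilia, stood at 100.3 FPKM in the metastatic and 78.4 FPKM in the primary tumor. RAB33B, a Golgi RAB that binds an autophagy complex, stood at 3.22 FPKM in the metastatic and 4.12 FPKM in the primary tumor. RAB36 stood at 2.35 FPKM in the metastatic and 1.78 FPKM in the primary tumor. RAB43 was read only with ISY1, at 47.9 FPKM in the metastatic and 45.9 FPKM in the primary tumor.

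Early endosome genes were lower or nearly level in the metastatic tumor, and 0 of 7 expressed members passed 2-fold. The log2 ratio was below 0 in 6 of 7 members, where 6585 of all 13811 genes and loci lay below 0. The group median was -0.23. After each of 3 rescalings all 7 members lay below 0, but these also lowered the median of all genes and loci from 0.03. It became -0.13 at an equal sum, -0.0016 by the median ratio and -0.05 by the 75th percentile, and RAB5B crossed 0 with that shift. RAB5 proteins drive uptake and fusion at the early endosome. RAB5A stood at 25.6 FPKM in the metastatic and 33.9 FPKM in the primary tumor. RAB5B stood at 36.6 FPKM in the metastatic and 35.7 FPKM in the primary tumor. RAB5C was read in 1 locus with KAT2A, at 87.7 FPKM in the metastatic and 61.3 FPKM in the primary tumor, which runs the other way. RAB21, an endosomal RAB that binds integrins, stood at 34.6 FPKM in the metastatic and 38.2 FPKM in the primary tumor. RAB31, which acts between the Golgi and endosomes, stood at 21.4 FPKM in the metastatic and 31.8 FPKM in the primary tumor, with the lowest log2 ratio of the group at -0.55. RAB20 stood at 9.11 FPKM in the metastatic and 12.2 FPKM in the primary tumor. RAB22A stood at 5.12 FPKM in the metastatic and 6.16 FPKM in the primary tumor. RAB17, known from epithelia, stood at 3.52 FPKM in the metastatic and 3.84 FPKM in the primary tumor.

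Recycling and surface delivery genes included RAB11A, and 0 of 8 expressed members passed 2-fold. Their median log2 ratio was -0.06, with 4 members above and 4 below 0, or 3 above and 5 below with both libraries at an equal sum or scaled by the 75th percentile, where RAB14 crossed 0. RAB11B, the paralog of RAB11A, stood at 66.3 FPKM in the metastatic and 80.5 FPKM in the primary tumor. RAB10, which delivers membrane proteins to the surface, stood at 86.1 FPKM in the metastatic and 96.5 FPKM in the primary tumor. RAB14, at the Golgi and endosomes, stood at 25.8 FPKM in the metastatic and 25.04 FPKM in the primary tumor. RAB35, of fast recycling and cytokinesis, stood at 20.4 FPKM in the metastatic and 12.0 FPKM in the primary tumor, a log2 ratio of 0.73. RAB12, which directs recycling receptors to lysosomes, stood at 59.4 FPKM in the metastatic and 37.5 FPKM in the primary tumor, a log2 ratio of 0.65. These 2 genes were the highest of the group. RAB8B stood at 3.70 FPKM in the metastatic and 5.24 FPKM in the primary tumor. RAB15 stood at 0.783 FPKM in the metastatic and 1.20 FPKM in the primary tumor.

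Several RAB genes of surface delivery were read only in merged loci. The locus of RAB8A, which acts in exocytosis and cilia, with HSH2D stood at 187 FPKM in the metastatic and 159 FPKM in the primary tumor. The locus of RAB13, of tight junction traffic, with JTB and SLC39A1 stood at 353 FPKM in the metastatic and 265 FPKM in the primary tumor. RAB4A, of fast recycling, was read with SPHAR at 59.2 FPKM in the metastatic and 47.3 FPKM in the primary tumor. RAB4B was read with EGLN2 and MIA at 62.9 FPKM in the metastatic and 58.5 FPKM in the primary tumor. All 4 loci were within 2-fold, and the shares of the RAB genes in them cannot be told from the table. RAB25, an epithelial relative of RAB11, stood at 0.178 FPKM in the metastatic and 0.250 FPKM in the primary tumor.

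Late endosome and lysosome-related genes held both RAB genes that were at least 2-fold higher, 2 of 5 expressed members, beside 9.22% of all genes and loci. Of the 7 members of the group, RAB38 and RAB9B reached 1 FPKM in neither library, and RAB7B reached it only in the metastatic tumor. The log2 ratio was above 0 in 5 of 5 expressed members, where 7148 of all 13811 genes and loci lay above 0. For the 2 members left out by the filter it was -0.54 (RAB38) and 0.02 (RAB9B). The group median was 0.43. The median was 0.14 with both libraries at an equal sum, where RAB38 entered as a member below 0, and 0.19 with no filter on low values. These 5 genes stayed above 0 after each rescaling, RAB7A and RAB29 only just, at 0.01 each with both libraries at an equal sum. RAB32, which acts in the making of melanosomes and other lysosome-related organelles and sits partly at mitochondria, stood at 40.8 FPKM in the metastatic and 16.2 FPKM in the primary tumor. Its log2 ratio of 1.28 was the highest of the 40 genes, and it lay between 1.12 and 1.25 after rescaling. Its close relative RAB38 stood at 0.262 FPKM in the metastatic and 0.838 FPKM in the primary tumor. RAB7B, of transport from endosomes back to the Golgi, stood at 2.81 FPKM in the metastatic and 0.870 FPKM in the primary tumor, a log2 ratio of 1.02. This call was lost at a filter of 5 FPKM and after each rescaling, where the log2 ratio was 0.96 to 0.996. RAB7A, the main RAB of late endosomes, stood at 162 FPKM in the metastatic and 142 FPKM in the primary tumor. RAB9A, of return from late endosomes to the Golgi, stood at 39.3 FPKM in the metastatic and 28.9 FPKM in the primary tumor. RAB29, a partner of the kinase LRRK2, stood at 7.74 FPKM in the metastatic and 6.81 FPKM in the primary tumor.

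Leukocytes are known to express RAB7B and RAB32, and of the leukocyte markers with their own row LYZ stood at 12.0 FPKM in the metastatic and 2.72 FPKM in the primary tumor. LYZ is also expressed by some epithelia. The common leukocyte antigen PTPRC stood at 0.0403 FPKM in the metastatic and 0.111 FPKM in the primary tumor. CSF1R stood at 0.243 FPKM in the metastatic and 1.06 FPKM in the primary tumor. ITGAM stood at 0.145 FPKM in the metastatic and 0.121 FPKM in the primary tumor. The part of leukocytes in the RAB32 and RAB7B values was not tested.

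Of the remaining RAB genes, 0 of 4 expressed members passed 2-fold and the median log2 ratio was -0.43. RAB23, an inhibitor of Hedgehog signalling, stood at 5.73 FPKM in the metastatic and 4.08 FPKM in the primary tumor. RAB28, known from cilia and photoreceptors, stood at 4.19 FPKM in the metastatic and 5.92 FPKM in the primary tumor. RAB40B, part of a ubiquitin ligase, stood at 1.23 FPKM in the metastatic and 2.05 FPKM in the primary tumor. RAB42 stood at 0.375 FPKM in the metastatic and 1.36 FPKM in the primary tumor, a log2 ratio of -0.78 that became -1.62 with a pseudocount of 0.1 FPKM. RAB24, linked to autophagy, was read with MXD3 at 52.6 FPKM in the metastatic and 38.1 FPKM in the primary tumor. RAB40C was read with WFIKKN1 at 7.10 FPKM in the metastatic and 11.0 FPKM in the primary tumor, the only merged RAB locus that was lower in the metastatic tumor.

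**Figure D3:**
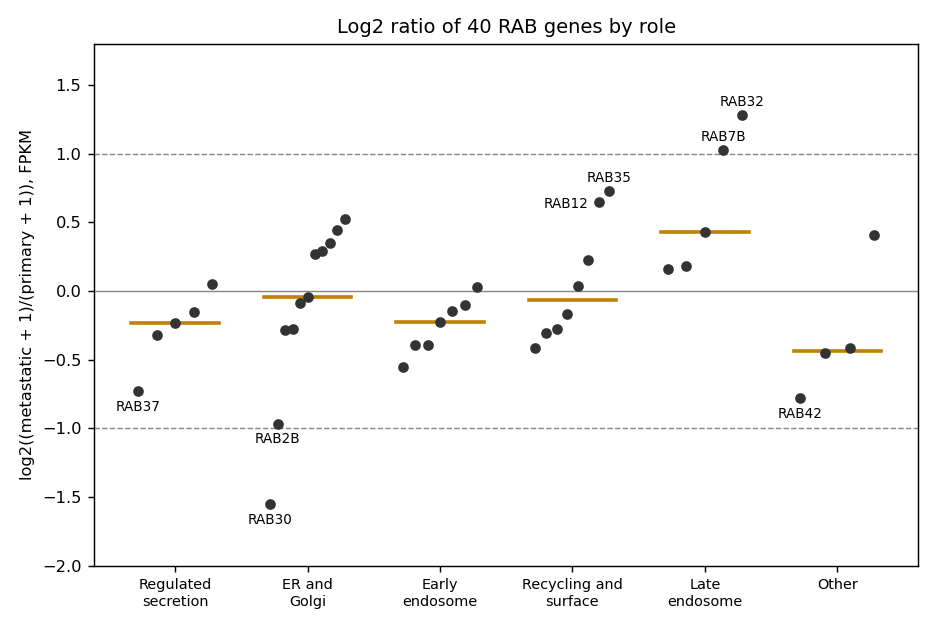
Log2((metastatic + 1)/(primary + 1)) in FPKM of 40 RAB genes, 1 point per gene in order of value within each role group; bars are group medians and dashed lines mark 2-fold. RAB32 and RAB7B lie above the upper line and RAB30 below the lower one, and the median of the late endosome group lies at 0.43, or 0.14 with both libraries at an equal sum.

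The members nearest to 2-fold were few. RAB7B at 1.02 was just past it on the higher side, and the next gene on that side was RAB35 at 0.73. On the lower side RAB2B at -0.96 lay just inside, followed by RAB42 at -0.78 and RAB37 at -0.73. At a 4-fold threshold 0 RAB genes were higher and 0 lower, where 1.19% of all genes and loci were higher, 1.88% lower and 3.07% past it in either direction.

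Closely related RAB genes were compared as pairs, since paralogs often share a membrane. A ratio between paralogs within 1 library does not depend on the scaling between libraries. RAB2A exceeded RAB2B 23.1-fold in the metastatic tumor and 8.18-fold in the primary tumor, so RAB2B made up 4.15% of the RAB2 sum in the metastatic and 10.9% in the primary tumor. RAB6B made up 38.3% of the RAB6 sum in the metastatic tumor and 25.7% in the primary tumor. RAB32 exceeded RAB38 156-fold in the metastatic and 19.3-fold in the primary tumor, a ratio that rests on a RAB38 level under 1 FPKM in both. RAB11A made up 89.3% of the RAB11 sum in the metastatic and 85.5% in the primary tumor.

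The other pairs shifted less or held 1 dominant member. RAB1A made up 76.2% of the RAB1 sum in the metastatic tumor and 75.6% in the primary tumor. RAB7A made up 98.3% of the RAB7 sum in the metastatic and 99.4% in the primary tumor. RAB9A made up 99.7% of the RAB9 sum in the metastatic and 99.6% in the primary tumor. RAB5A stood at 0.699 times the level of RAB5B in the metastatic tumor and 0.949 times in the primary tumor. Of 8 pairs compared, 5 had log2 ratios of opposite sign without rescaling, and the number was 4 after scaling by the median ratio or the 75th percentile. RAB2A with RAB2B, RAB6A with RAB6B, RAB11A with RAB11B and RAB32 with RAB38 were of opposite sign under all 4 scalings.

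**Figure D4:**
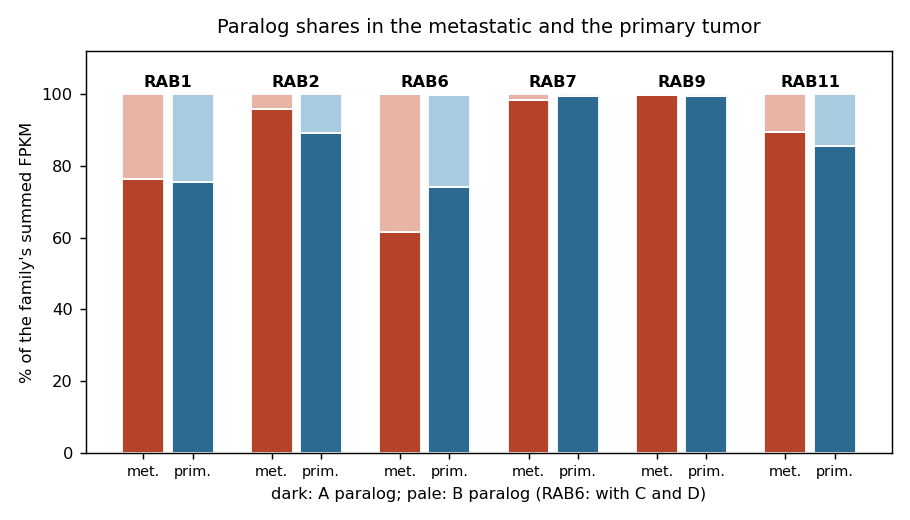
Share (%) of the summed FPKM of 6 RAB subfamilies held by the A paralog (dark) and the B paralog (pale, with C and D for RAB6), in the metastatic tumor (left bar, red) and the primary tumor (right bar, blue). The B share is smaller in the metastatic tumor for RAB2, at 4.15% in the metastatic against 10.9% in the primary tumor. It is larger for RAB6, at 38.3% in the metastatic against 25.7% in the primary tumor.

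Genes that load, switch off or read RAB proteins were set beside the RAB genes themselves, in 9 lists. Over all lists 121 genes with their own row were expressed, of which 4 were at least 2-fold higher and 8 lower in the metastatic tumor, or 9.92% beside 18.6% of all genes and loci. Exchange factors held most of the lower genes. Of 28 expressed exchange factors 6 passed 2-fold on the lower side and 1 on the higher side. Their median log2 ratio was -0.16, beside 0.03 over all genes and loci. On the lower side lay 9.35% of all genes and loci. With both libraries at an equal sum the number of exchange factors on that side was 10, where 12.6% of all genes and loci lay there. DENND6B stood at 0.836 FPKM in the metastatic and 5.14 FPKM in the primary tumor. RIN1, an exchange factor for RAB5, stood at 19.7 FPKM in the metastatic and 50.3 FPKM in the primary tumor, while RAB5A and RAB5B were within 1.5-fold. DENND3, which loads RAB12, stood at 3.73 FPKM in the metastatic and 10.6 FPKM in the primary tumor, while RAB12 itself stood higher in the metastatic tumor, as given above. RIC1, which with RGP1 loads RAB6, stood at 4.41 FPKM in the metastatic and 12.3 FPKM in the primary tumor. DENND4C, which loads RAB10, stood at 6.21 FPKM in the metastatic and 16.6 FPKM in the primary tumor. SBF2 stood at 4.39 FPKM in the metastatic and 11.9 FPKM in the primary tumor.

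MON1A, part of the complex that loads RAB7, was the only exchange factor with its own row at least 2-fold higher. It stood at 13.1 FPKM in the metastatic and 4.31 FPKM in the primary tumor. MON1B was read only with SYCE1L, at 13.2 FPKM in the metastatic and 21.5 FPKM in the primary tumor. HPS1 and HPS4 together load RAB32 and RAB38 and differed in opposite directions. HPS1 stood at 32.6 FPKM in the metastatic and 20.5 FPKM in the primary tumor. HPS4 stood at 10.6 FPKM in the metastatic and 20.2 FPKM in the primary tumor. DENND1A, which loads RAB35, stood at 27.7 FPKM in the metastatic and 23.8 FPKM in the primary tumor. MADD, which loads RAB3 and RAB27, stood at 21.4 FPKM in the metastatic and 31.0 FPKM in the primary tumor. RAB3IP, which loads RAB8, was read only with MYRFL, at 13.1 FPKM in the metastatic and 4.68 FPKM in the primary tumor.

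GTPase-activating proteins with their own row were mostly level, and of 26 expressed genes 1 was at least 2-fold lower and 0 were higher. Of all genes and loci 9.35% were lower and 9.22% higher. After each rescaling 2 were lower, where 9.73% to 12.6% of all genes and loci were. Their median log2 ratio was -0.15. TBC1D8 stood at 2.79 FPKM in the metastatic and 7.83 FPKM in the primary tumor. TBC1D8B stood at 2.02 FPKM in the metastatic and 4.98 FPKM in the primary tumor. TBC1D2B stood at 5.44 FPKM in the metastatic and 9.19 FPKM in the primary tumor. TBC1D30 stood at 2.32 FPKM in the metastatic and 0.714 FPKM in the primary tumor. RAB3GAP1, a subunit of the RAB3 GTPase-activating complex, stood at 22.3 FPKM in the metastatic and 24.4 FPKM in the primary tumor. Its partner RAB3GAP2 stood at 19.7 FPKM in the metastatic and 13.3 FPKM in the primary tumor. Another 6 listed genes were read only in merged loci. Metastatic and primary levels were 0.405 and 3.24 FPKM for the locus of TBC1D9B, and 14.8 and 34.7 FPKM for that of TBC1D5. Those of TBC1D10A (20.4 and 30.7 FPKM) and RABGAP1 (14.7 and 15.4 FPKM) were also lower. Higher were those of TBC1D24 (288 and 163 FPKM) and TBC1D25 (233 and 128 FPKM).

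The general RAB machinery of prenylation and extraction showed 0 of 4 expressed genes past 2-fold and a median of -0.12. GDI2, which takes RAB proteins off membranes, stood at 269 FPKM in the metastatic and 251 FPKM in the primary tumor. CHM, the escort protein that presents new RAB proteins for prenylation, stood at 11.8 FPKM in the metastatic and 15.9 FPKM in the primary tumor. RABIF stood at 6.43 FPKM in the metastatic and 3.58 FPKM in the primary tumor. RABGGTA, a subunit of the prenyl transferase, was listed at 0 in both libraries.

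Effectors of RAB3 and RAB27 were mostly low, with 10 of 15 under 1 FPKM in both tumors. Of the 5 expressed, 1 passed 2-fold on each side, and the median log2 ratio was 0.13, or -0.07 with both libraries at an equal sum. SYTL4, known as granuphilin and found on insulin granules, stood at 6.51 FPKM in the metastatic and 2.24 FPKM in the primary tumor. MLPH, which links RAB27A to myosin 5 on melanosomes, stood at 4.62 FPKM in the metastatic and 11.8 FPKM in the primary tumor. SYTL5 stood at 4.33 FPKM in the metastatic and 1.71 FPKM in the primary tumor. UNC13D stood at 3.11 FPKM in the metastatic and 2.75 FPKM in the primary tumor. SYTL1, also within 1.5-fold, stood at 10.4 FPKM in the metastatic and 11.1 FPKM in the primary tumor. Of 12 expressed SNARE and priming genes of exocytosis with their own row, 1 passed 2-fold on the higher side and 0 on the lower side. Of all genes and loci 9.22% were higher and 9.35% lower. Their median was -0.07. The number on the lower side was 2 with both libraries at an equal sum or a pseudocount of 0.1 FPKM. At these settings 12.6% and 13.8% of all genes and loci lay there. CADPS2, a priming factor of dense-core vesicles, stood at 1.82 FPKM in the metastatic and 0.177 FPKM in the primary tumor. It was the gene on the higher side and reached 1 FPKM only in the metastatic tumor. SYT7, a calcium sensor of granule release, stood at 2.71 FPKM in the metastatic and 5.81 FPKM in the primary tumor. Its relative SYT13 stood at 1.51 FPKM in the metastatic and 3.87 FPKM in the primary tumor. NAPA, of SNARE recycling, stood at 111 FPKM in the metastatic and 63.5 FPKM in the primary tumor. VAMP8, the SNARE of zymogen granules, stood at 238 FPKM in the metastatic and 168 FPKM in the primary tumor. SNAP25, the neuronal and endocrine SNARE, was listed at 0 in the metastatic tumor and stood at 0.0456 FPKM in the primary tumor. STX1A of the same list stood at 22.9 FPKM in the metastatic and 14.0 FPKM in the primary tumor. VAMP2 was read only with PER1, at 16.9 FPKM in the metastatic and 39.1 FPKM in the primary tumor. STXBP2 was read only with PET100, at 545 FPKM in the metastatic and 349 FPKM in the primary tumor.

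Golgi effectors and tethers showed 0 of 12 expressed genes past 2-fold and a median log2 ratio of 0.16, which was -0.0049 with both libraries at an equal sum. BICD1, a dynein adaptor that binds RAB6, stood at 9.17 FPKM in the metastatic and 14.9 FPKM in the primary tumor. BICD2, its relative, stood at 13.0 FPKM in the metastatic and 9.30 FPKM in the primary tumor. GOLGA4 stood at 52.1 FPKM in the metastatic and 36.8 FPKM in the primary tumor. ERC1, a RAB6 effector, stood at 4.07 FPKM in the metastatic and 5.95 FPKM in the primary tumor. Of 15 expressed endosome effectors and tethers 1 passed 2-fold on the higher side and 0 on the lower side, and the median was -0.18. RABEP1, a RAB5 and RAB4 effector, stood at 20.6 FPKM in the metastatic and 7.97 FPKM in the primary tumor. PIK3C3, the kinase that makes the endosomal lipid PI3P, stood at 97.9 FPKM in the metastatic and 58.7 FPKM in the primary tumor. Its regulatory subunit PIK3R4 stood at 45.7 FPKM in the metastatic and 26.0 FPKM in the primary tumor. VPS18, of the late endosome tether, stood at 6.39 FPKM in the metastatic and 3.20 FPKM in the primary tumor. All 3 lay within 2-fold.

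RAB11 effectors, myosin 5 genes and exocyst subunits showed 0 of 16 expressed genes past 2-fold and a median of -0.29. RAB11FIP2 stood at 7.72 FPKM in the metastatic and 14.8 FPKM in the primary tumor. RAB11FIP4 stood at 3.44 FPKM in the metastatic and 1.72 FPKM in the primary tumor. EXOC3, an exocyst subunit, stood at 15.5 FPKM in the metastatic and 25.2 FPKM in the primary tumor. MICALL2, a RAB13 effector, stood at 20.3 FPKM in the metastatic and 32.3 FPKM in the primary tumor. The list around LRRK2, the kinase that phosphorylates several RAB proteins, held 3 expressed genes with a median of -0.90 and 0 past 2-fold. With both libraries at an equal sum 2 of the 3 were at least 2-fold lower, at a median of -1.08. At that scaling 12.6% of all genes and loci were at least 2-fold lower, at a median of -0.13. With a pseudocount of 0.1 or 0.5 FPKM 1 of the 3 was at least 2-fold lower, where 13.8% and 11.6% of all genes and loci were. Another 4 genes of the list, LRRK2 among them, were under 1 FPKM in both libraries. LRRK2 itself stood at 0.0556 FPKM in the metastatic and 0.00520 FPKM in the primary tumor. The motor adaptor MAPK8IP3 stood at 14.6 FPKM in the metastatic and 29.9 FPKM in the primary tumor. Its relative SPAG9 stood at 8.47 FPKM in the metastatic and 16.7 FPKM in the primary tumor. RILPL1, which binds phosphorylated RAB proteins, stood at 10.2 FPKM in the metastatic and 10.01 FPKM in the primary tumor.

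**Figure D5:**
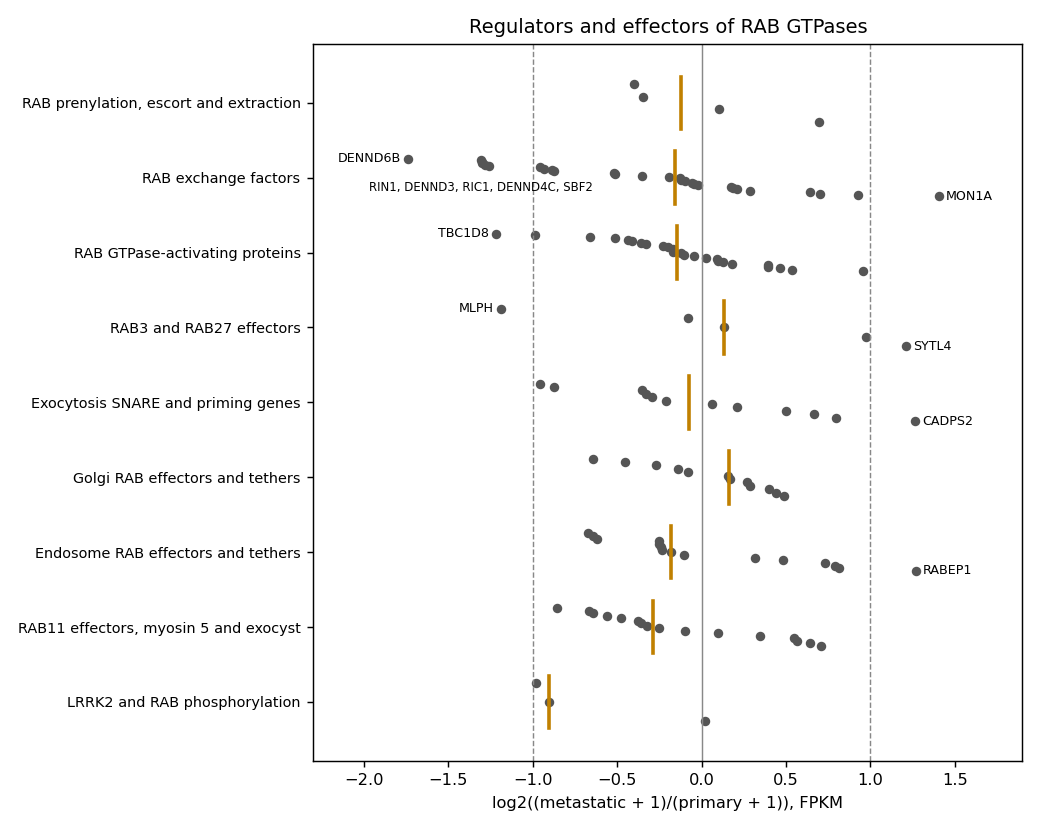
Log2((metastatic + 1)/(primary + 1)) in FPKM of genes that regulate or read RAB proteins, 1 point per expressed gene and 1 row per list; orange bars are list medians, dashed lines mark 2-fold and genes past it are named. The exchange factors hold 6 of the 8 genes past 2-fold on the lower side, and MON1A is the gene furthest to the right.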

How the data were processed

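The authors deposited 1 table of 62573 rows of FPKM, with 1 column per library and no counts, so read depth and counting error are unknown. Bcl2fastq 2.18.0.12, Cufflinks 2.2.1 and STAR 2.7.6a and the human build GRCh38 are named, in no stated role, in the submitters' processing notes. The labels name mouse, the host, as the organism. The annotation used, any filters and what was done with mouse reads are not stated. Of 6509 rows with low values (above 0 but under 1 FPKM in each library), 51.1% showed a ratio of 2 whole numbers no larger than 10, to a tolerance of 0.01%. The share was 0.277%, 5.61% and 1.04% after the metastatic column was multiplied by 0.95, 1.05 and 1.1. Such genes may rest on few fragments: RAB6D had a ratio of 1 to 6, RAB39A of 1 to 3 and RAB9B of 10 to 9, metastatic to primary. The other low RAB genes above 0 in both libraries had none, and those listed at 0 in a library could not be checked.

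Values of rows that share a label were added. The table has 1734 rows naming several symbols, and these were assigned to a gene when every other symbol was a clone, a short RNA or an antisense RNA. At a minimum of 1 FPKM in either library, 12991 single genes and 820 merged loci remained. Log2 ratios used a pseudocount of 1 FPKM and unscaled values, in Python 3.11.15 with numpy 2.4.6 and pandas 2.3.3, and figures were drawn with matplotlib 3.10.9. The steps were tested on simulated data. No test was run, as each group has 1 library. The 63 RAB genes, their 6 role groups, the 9 lists of partners and the 6 marker lists were chosen with earlier results of these data known. Named were all RAB genes, with 3 per role group and those past 2-fold in any case, and up to 4 members per list with the largest log2 ratio in size. Partners and markers named beyond these, and the genes LDHA and RPL7A, were chosen after their values were seen. A few listed genes are not reported here.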

Additional observations from a re-analysis of the deposited data

How the results depend on the processing

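RAB32 stayed at least 2-fold higher and RAB30 at least 2-fold lower under every pseudocount, filter, scaling and treatment of merged or repeated rows. The number of RAB genes at least 2-fold lower was 3 with a pseudocount of 0.1 or 0.5 FPKM, by construction, since a smaller pseudocount widens the ratios of low genes (RAB2B and RAB42 joined RAB30). At these pseudocounts 13.8% and 11.6% of all genes and loci were lower, beside 9.35% at 1 FPKM. The number of RAB genes at least 2-fold higher was 1 with a filter of 5 FPKM and after each rescaling, where RAB7B was lost. Without these changes 9.22% of all genes and loci were higher. That share did not fall with the 5 FPKM filter. It fell after each rescaling, to 7.17% at an equal sum. The number of RAB genes lower was 2 with libraries rescaled to the same sum or by the 75th percentile, where RAB2B joined. It was 1 by the median ratio. After these rescalings 9.73% to 12.6% of all genes and loci were lower. At 4-fold 0 RAB genes were higher and 0 lower, beside 1.19% and 1.88% of all genes and loci. At 1.5-fold 4 RAB genes were higher and 4 lower, beside 21.8% and 20%. The median log2 ratio of the RAB genes ran from -0.26, with libraries at the same sum, to 0.04 with merged RAB loci counted. At these settings the median of all genes and loci was -0.13 and 0.03. Alternatives for lists were added after the data were seen. No paired analysis was possible because each group has 1 library, and no replicate could be left out. The unknown depth limits low genes most.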
